A study of Rattus norvegicus with 3 samples.

Results

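The fatty acid uptake and oxidation genes described here are a set of 37 rat genes for bringing fatty acids into cells, activating them to acyl-CoA, moving them into mitochondria, oxidizing them, and controlling these steps. They were chosen by name and looked up by symbol, and 35 of the 37 were found among the 22250 genes of the count tables. Cd36, which encodes a fatty acid translocase, and Eci2, which encodes an enoyl-CoA isomerase, were not matched by symbol, so their levels are not analysed here. Nuclei came from the heart apex, with parts of the septum and both ventricles, of rats at 12 months of age, and were sorted by flow cytometry for single-nucleus RNA sequencing (snRNAseq). The WT rats carried an unedited Dmd gene. BMD rats (R-BMDdel45-47) carried a deletion of Dmd exons 45 to 47, which keeps the reading frame and models Becker muscular dystrophy. DMD rats (R-DMDdel52) carried a deletion of exon 52 and model Duchenne muscular dystrophy. Both deletions are constitutive, so every cell type of these hearts carries them. Each genotype was 1 library, so no test between genotypes could be made. Intervals are given at 95% and hold counting error alone, so differences between animals of a genotype are not in them.

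The adult heart draws much of its energy from long-chain fatty acids. Lipoprotein lipase on the capillary wall frees them from circulating lipids, carriers take them up, and acyl-CoA synthetases activate them. Carnitine palmitoyltransferases at the outer and inner mitochondrial membranes then pass the acyl groups to the beta oxidation spiral, whose electrons enter the respiratory chain through the electron transfer flavoprotein. Malonyl-CoA blocks the outer step, and the nuclear receptors PPARα and ERR, with their PGC-1 coactivators, drive transcription of many of these genes in muscle.

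The libraries held 19215994 to 21609238 unique molecular identifiers (UMIs, each marking 1 captured RNA molecule). Clustering of 24664 nuclei, with the members left out, gave 1 cluster in which all 11 of the cardiomyocyte markers found in the tables were raised. These cardiomyocyte-like nuclei numbered 2014 in WT, 1492 in BMD and 1048 in DMD, with medians of 2752, 3735 and 3220.5 UMIs per nucleus. Levels are counts per 1000000 summed UMIs of a class in a library (CPM), sums that were 6266001, 6314172 and 3775032 for cardiomyocyte-like nuclei. Dmd itself had 16566, 20979 and 19605 CPM there, but a count over the whole gene does not check for the exon deletions. A further cluster of 413 nuclei with cardiomyocyte markers had a median of 11.2 to 43.2% mitochondrial UMIs and was left out after the data were seen. This removal was uneven, since WT lost 65 of them, BMD 114 and DMD 234. As a part of all nuclei of the library, that was 0.652%, 1.67% and 2.97%. Genes leading this cluster included Gadd45g, Nppb and Nppa. Markers of other cells were present in cardiomyocyte-like nuclei and were not equal between libraries. The 10 pericyte or smooth muscle markers summed to 1011, 1025 and 696 CPM in WT, BMD and DMD. The sum hides unlike markers, since 5 of them had at least 50 UMIs and spread widely. Their log2 ratios over WT ran from -0.52 to 4.74 in BMD and from -1.24 to 6.12 in DMD. The 7 endocardial markers summed to 190, 232 and 351 CPM, and the 7 lymphatic markers to 245, 218 and 172 CPM. The 9 endothelial markers summed to 117, 186 and 206 CPM, and the 9 fibroblast markers to 191, 153 and 358 CPM, with no marker of these lists at 0. Scrublet marked 1.29%, 1.14% and 4.58% of the class as doublets, and the part of other cells in the results was not tested. Mitochondrial UMIs made up 0.197% of this class in WT, 0.37% in BMD and 0.408% in DMD. A list of 11 abundant cytoplasmic transcripts summed to 433, 195 and 254 CPM, highest in WT, but its genes did not share a direction. Of the 9 with at least 50 UMIs, 6 were lower than WT in BMD and 5 in DMD. Their median log2 ratios were -0.18 and -0.17, within ranges of -2.74 to 0.64 and -2.10 to 0.90. The part of cytoplasmic RNA in the results was not tested. The libraries shared 12 to 20 nucleus barcodes pair by pair. Fewer copies in a nucleus and a smaller fraction of nuclei with the transcript cannot be told apart in sums of this kind.

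Over all cardiomyocyte-like nuclei, the median ratio of the members was near that of all genes in BMD and somewhat below it in DMD. Single members differed between genotypes by up to 3.25-fold. Of the 35 genes, 33 had at least 50 UMIs over the 3 libraries in this class. Acsl5 had 42 UMIs and Echs1 had 1 UMI, and neither is given a ratio. In BMD, 3 of the 33 members were lower than in WT past 1.5-fold, or 9.09%, beside 10.3% of the 10050 genes with at least 50 UMIs. A further 4, or 12.1%, were higher, beside 8.21% of all genes. In DMD, 6 of the 33 were lower, or 18.2%, beside 10.9% of all genes, and 1 was higher, or 3.03%, beside 10.9%. The median log2 ratio of the members was -0.07 in BMD and -0.15 in DMD, and that of all genes was -0.08 and -0.03. In both comparisons, 22 of the 33 members, or 66.7%, stayed within 1.5-fold of WT, beside 70.2% of all genes. Lower in both were 3, or 9.09%, beside 4.72% of all genes, and higher in both were 0, beside 5.38%. BMD and DMD were set against the same WT library, so their ratios to WT, and the joint counts, are not independent of each other.

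The cardiomyocyte-like class was not made up alike in the libraries. At a finer clustering resolution of 1.0 it split into a larger cluster 1, led by genes such as Ky, Lsamp and Myh6, and a cluster 2, led by Xirp2, Hs3st2, Tgfb2 and Acta1. Cluster 1 held 95.2%, 47.3% and 62.9% of the class in WT, BMD and DMD, and cluster 2 held 4.8%, 52.7% and 37.1%, or 96, 782 and 385 nuclei. Each cluster alone had 32 members with at least 50 UMIs. Within cluster 1, 0 members were lower past 1.5-fold in BMD and 5 higher, beside 9.7% and 6.38% of all genes. In DMD, 6 were lower and 1 higher there, beside 11% and 9.58% of all genes. Within cluster 2, 2 were lower and 7 higher in BMD, beside 15.9% and 10.9% of all genes. In DMD, 3 were lower and 5 higher there, beside 17.9% and 13%, with WT resting on 450576 UMIs. Of the genes called higher in cluster 2, WT had 2 UMIs of Acsl4, 2 of Acsl6, 7 of Cpt2 and 5 of Fabp4. The intervals of Acsl4 and Cpt2 spanned 0 in BMD, as did those of Acsl4, Acsl6 and Fabp4 in DMD. Ratios over the whole class therefore mix levels within a cluster with the share of each cluster. Values by cluster are given below for some members, and not for every member where they part.

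**Figure D1:**
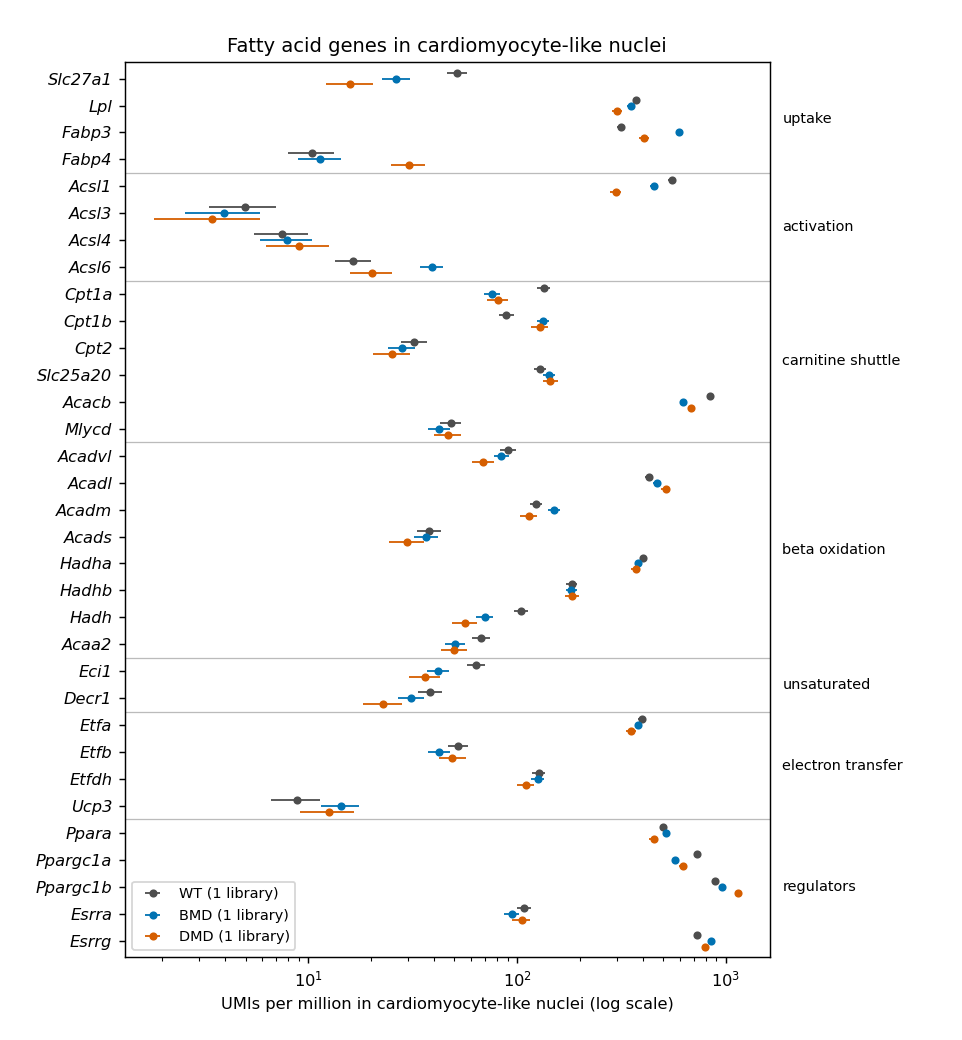
Level of each member in cardiomyocyte-like nuclei, in CPM on a log axis, with 1 point per library (grey WT, blue BMD, orange DMD) and exact Poisson 95% intervals. Slc27a1, Cpt1a and Eci1 lie lower in BMD and DMD than in WT, while most enzymes of the spiral lie close together.

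**Figure D2:**
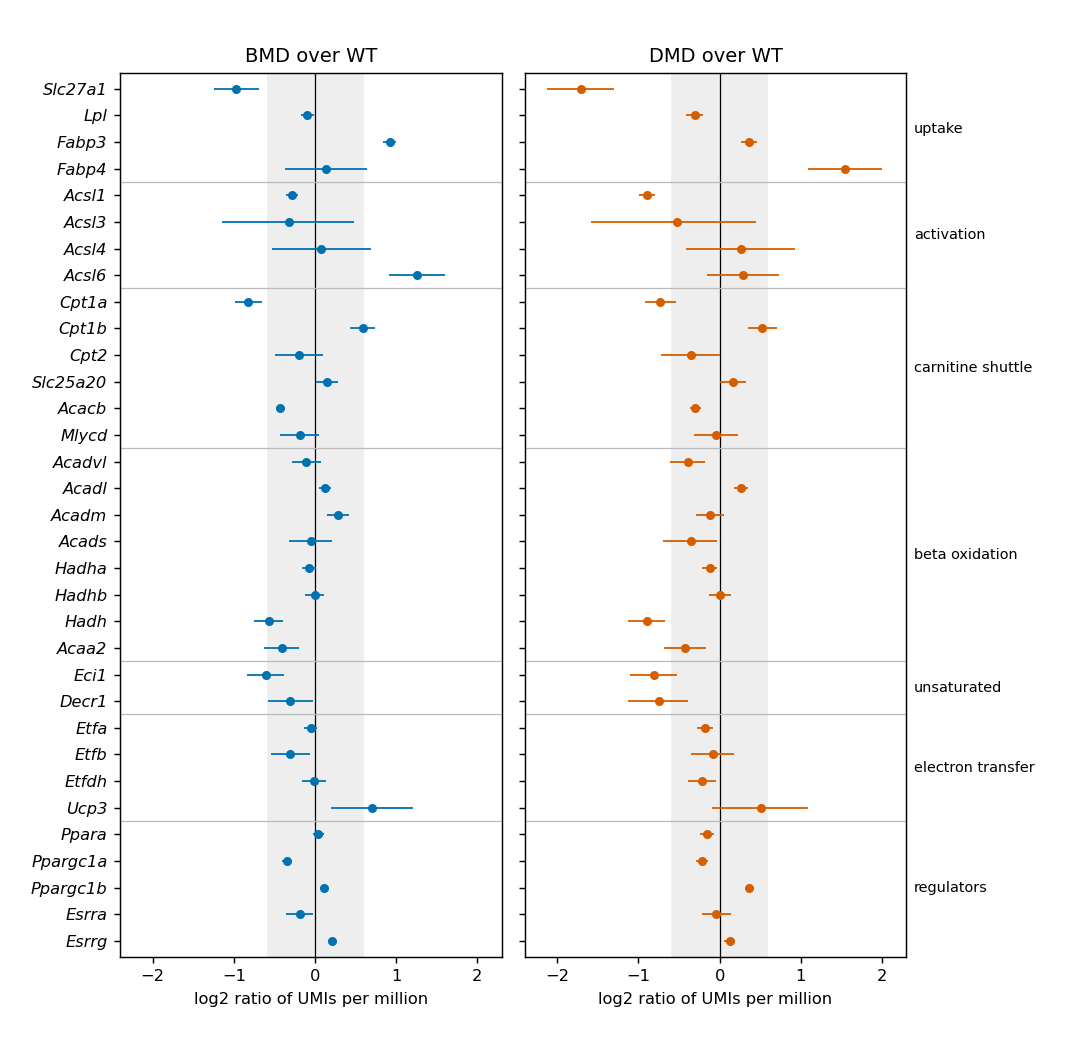
Log2 ratio of each member over WT in cardiomyocyte-like nuclei, BMD on the left and DMD on the right, with exact 95% intervals for counting error and the range within 1.5-fold shaded. In all, 22 of 33 members lie inside the shaded range on both sides.

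Among the uptake genes, Slc27a1 was lower and Fabp3 higher in both genotypes. Slc27a1 (ENSRNOG00000018170), which encodes the fatty acid transport protein FATP1, had 51.7 CPM in WT, 26.4 in BMD and 15.9 in DMD. The log2 ratio over WT was -0.97 (-1.25 to -0.69) for BMD and -1.70 (-2.12 to -1.30) for DMD, which is 1.96-fold and 3.25-fold lower. WT was the highest of the libraries and DMD the lowest, and none of the 3 counting intervals overlapped. Within cluster 1 it had 52.5, 36.7 and 16.7 CPM, so BMD was then short of 1.5-fold, and within cluster 2 it had 39.9, 21.1 and 15.4 CPM. Fabp3 (ENSRNOG00000012879), the heart fatty acid binding protein that carries fatty acids through the cytoplasm, had 314, 594 and 405 CPM in WT, BMD and DMD. The ratio over WT was, on the log2 scale, 0.92 (0.840 to 0.998) for BMD and 0.37 (0.27 to 0.46) for DMD, so that BMD passed 1.5-fold and DMD did not. BMD was highest and WT lowest in cluster 1, at 321, 637 and 433 CPM, and in cluster 2, at 224, 572 and 371 CPM. Lpl, which encodes lipoprotein lipase, had 372, 349 and 301 CPM, with log2 ratios of -0.09 in BMD and -0.31 in DMD.

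Fabp4 (ENSRNOG00000010805), a fatty acid binding protein of endothelium and fat, was the 1 member higher past 1.5-fold in DMD. It had 10.4 CPM in WT, 11.4 in BMD and 30.2 in DMD, with a log2 ratio of 1.54 (1.090 to 2.004) for DMD. These levels lay below an upper estimate of what free RNA would give. In barcodes with at most 50 UMIs, Fabp4 had 499, 386 and 867 CPM. With the share of free RNA in cardiomyocyte-like nuclei put at 2.99% in WT, 5.75% in BMD and 4.33% in DMD from the markers of other cells, 14.9, 22.2 and 37.5 CPM of Fabp4 would be expected. The measured level was under this upper estimate in every library. With doublets removed the log2 ratio in DMD was 1.21. The parts of free RNA and of doublets in the Fabp4 value were not tested.

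For activation, Acsl1 was lower in DMD and Acsl6 higher in BMD. Acsl1 (ENSRNOG00000010633), the main long-chain acyl-CoA synthetase of heart muscle, had 549 CPM in WT, 450 in BMD and 296 in DMD. The log2 ratio over WT was -0.29 (-0.36 to -0.21) for BMD and -0.89 (-0.99 to -0.79) for DMD. Acsl6 (ENSRNOG00000026745), another synthetase, had 16.4, 39.1 and 20.1 CPM, with a log2 ratio of 1.25 (0.91 to 1.60) for BMD and 0.29 (-0.15 to 0.73) for DMD. BMD was apart from both other libraries, whose intervals overlapped. The Acsl1 levels of DMD and WT lay apart in cluster 1, at 568, 523 and 299 CPM in WT, BMD and DMD, and near each other in cluster 2, at 317, 409 and 289 CPM. Acsl1 made up 97.1% of the UMIs of this pair in WT (96.5 to 97.6%), 92% (91 to 92.9%) in BMD and 93.6% (92.1 to 95%) in DMD. Acsl3 and Acsl4, with at most 9.01 CPM in any library, had ratios within 1.5-fold of WT in both genotypes, on 69 and 131 UMIs. For Acsl3 the log2 ratio was -0.32 (-1.14 to 0.49) in BMD and -0.52 (-1.58 to 0.45) in DMD. For Acsl4 it was 0.08 (-0.53 to 0.68) and 0.26 (-0.42 to 0.93). Each interval reaches past 1.5-fold, so these counts do not settle whether either gene differed.

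At the carnitine shuttle, both forms of the outer-membrane enzyme differed from WT, in opposite directions. Cpt1a (ENSRNOG00000014254), the form most known from liver, had 134 CPM in WT, 75.7 in BMD and 80.5 in DMD. On the log2 scale its ratio over WT was -0.82 (-0.98 to -0.66) for BMD and -0.73 (-0.92 to -0.54) for DMD. Cpt1b (ENSRNOG00000010438), the muscle form, which is more readily blocked by malonyl-CoA, had 88.6, 133 and 128 CPM. Its log2 ratio was 0.59 (0.43 to 0.74) for BMD, just past 1.5-fold, and 0.53 (0.35 to 0.71) for DMD, just short of it. The BMD ratio of Cpt1b was under 1.5-fold in 3 of 16 other settings, and its DMD ratio was past 1.5-fold in 3. The BMD ratio of Cpt1a was under 1.5-fold in 2 of them, as was its DMD ratio in 2. WT was the highest library for Cpt1a and the lowest for Cpt1b within each cluster. Cpt1a had 135, 90.7 and 86 CPM in cluster 1 and 115, 66.9 and 74.4 CPM in cluster 2. Cpt1b had 91.2, 152 and 131 CPM in cluster 1 and 55.5, 123 and 126 CPM in cluster 2. For both genes WT lay outside the intervals of BMD and DMD, while the intervals of BMD and DMD overlapped. Of the UMIs of both genes, Cpt1b held 39.9% in WT (37.3 to 42.5%), 63.7% (61.1 to 66.3%) in BMD and 61.3% (57.8 to 64.7%) in DMD. This share does not compare their true abundance, since capture can differ between transcripts, but its shift between libraries does not depend on the scaling of a library.

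**Figure D3:**
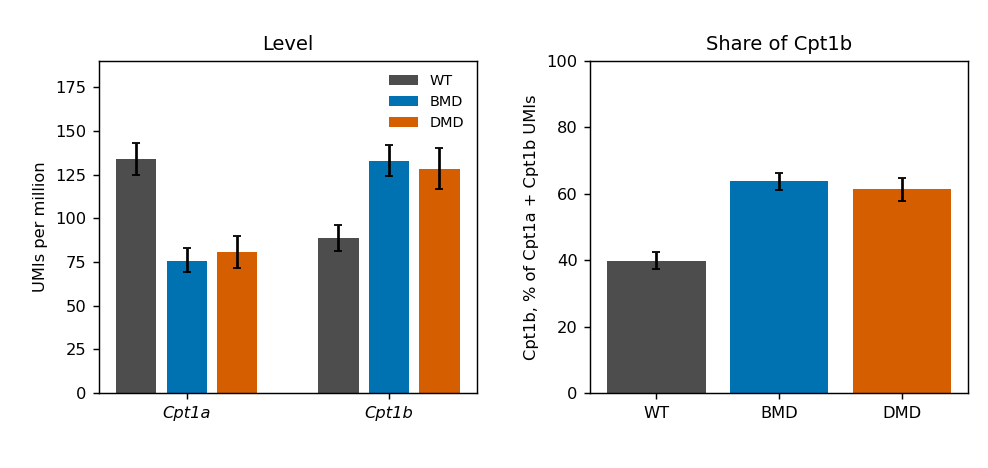
Left, CPM of Cpt1a and Cpt1b in cardiomyocyte-like nuclei of the WT, BMD and DMD libraries, with exact Poisson 95% intervals. Right, the share of Cpt1b among the UMIs of both genes with exact binomial 95% intervals, 39.9% in WT, 63.7% in BMD and 61.3% in DMD.

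The directions of Cpt1a and Cpt1b over WT held in nuclei of different depth, while the order of BMD and DMD did not. In nuclei with 1000 to 2500 UMIs, Cpt1a had 147, 86.7 and 53.1 CPM in WT, BMD and DMD, and Cpt1b had 104, 147 and 169 CPM. In nuclei with 2500 to 5000 UMIs, Cpt1a had 124, 77.6 and 91.3 CPM, and Cpt1b 82, 149 and 132 CPM. The DMD ratio of Cpt1a was short of 1.5-fold there, at -0.44 (-0.72 to -0.17) on the log2 scale. In nuclei with at least 5000 UMIs, Cpt1a had 136, 72.6 and 77.5 CPM, and Cpt1b 82.1, 116 and 107 CPM. The other shuttle genes stayed within 1.5-fold of WT. Slc25a20, the carnitine-acylcarnitine translocase of the inner membrane, had 128, 142 and 144 CPM, and Cpt2, the inner-membrane transferase, had 32.1, 28 and 25.2 CPM. Acacb, which makes malonyl-CoA at the mitochondrial surface, had 841, 625 and 683 CPM, with log2 ratios of -0.43 (-0.49 to -0.37) for BMD and -0.30 (-0.37 to -0.23) for DMD. Within cluster 1 Acacb had 862, 767 and 743 CPM. Within cluster 2, where WT was the lowest library, it had 510, 549 and 620 CPM, with a log2 ratio of 0.11 (-0.09 to 0.31) for BMD. Mlycd, which breaks malonyl-CoA down, had 48, 42.1 and 46.6 CPM.

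Most enzymes of the beta oxidation spiral were near WT, and Hadh was the 1 past 1.5-fold. Hadh (ENSRNOG00000010697), the short-chain 3-hydroxyacyl-CoA dehydrogenase, had 104 CPM in WT, 70.2 in BMD and 56.2 in DMD. The log2 ratio was -0.57 (-0.75 to -0.39) for BMD and -0.89 (-1.12 to -0.67) for DMD, so only DMD passed 1.5-fold. Within cluster 1 Hadh had 108, 93.9 and 58.9 CPM in WT, BMD and DMD, and within cluster 2 it had 48.8, 57.7 and 52.3 CPM on 22, 233 and 95 UMIs, with DMD no longer lower. The BMD ratio passed 1.5-fold in 4 of 16 other settings. By contrast, the subunits of the mitochondrial trifunctional protein stayed close to WT. Hadha had 401, 381 and 369 CPM and Hadhb 183, 182 and 184 CPM, and both Hadhb intervals of the log2 ratio spanned 0. Acaa2, the thiolase of the last step, had 67.2, 50.5 and 50.1 CPM, with log2 ratios of -0.41 and -0.42 in BMD and DMD.

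The acyl-CoA dehydrogenases, which start each turn of the spiral and differ in the chain length they take, did not share a direction. Acadl, for long chains, had 427, 465 and 514 CPM in WT, BMD and DMD, with a log2 ratio of 0.27 (0.18 to 0.35) for DMD. Acadvl, for very long chains, had 90.5, 84.1 and 68.9 CPM, and a log2 ratio of -0.39 (-0.61 to -0.18) for DMD. Acadm, for medium chains, had 123, 150 and 114 CPM, and Acads, for short chains, had 38, 36.6 and 29.7 CPM. All 4 stayed within 1.5-fold of WT in both genotypes.

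Both measured members among the enzymes for unsaturated fatty acids were lower in DMD. Ech1, another enzyme of this branch, from the wider list given below, was not lower. Its log2 ratio was 0.40 (0.13 to 0.66) for BMD and 0.14 (-0.175 to 0.457) for DMD. Eci1 (ENSRNOG00000008843), an isomerase that shifts double bonds into place for the spiral, had 63.5 CPM in WT, 41.7 in BMD and 36.3 in DMD. The log2 ratio was -0.61 (-0.84 to -0.38) for BMD and -0.81 (-1.10 to -0.52) for DMD. Decr1 (ENSRNOG00000008236), the 2,4-dienoyl-CoA reductase, had 38.3, 31 and 22.8 CPM, with log2 ratios of -0.30 (-0.58 to -0.02) for BMD and -0.75 (-1.12 to -0.39) for DMD. The BMD ratio of Eci1 lay close to 1.5-fold and fell short of it under 7 of the 16 other settings. Within cluster 1 it had 64.8, 52.7 and 38 CPM, and within cluster 2 it had 42.2, 35.4 and 35.2 CPM on 19, 143 and 64 UMIs.

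Slc27a1, Cpt1a and Eci1 were the 3 members lower past 1.5-fold in both genotypes, and the 250 bases before their annotated starts are shown from RefSeq (GRCr8, a newer build than that of the counts). Capitals mark AGGTCA, the core site that PPAR and ERR receptors read, or its reverse complement TGACCT.
Slc27a1, chr16:18312717-18312966, plus strand: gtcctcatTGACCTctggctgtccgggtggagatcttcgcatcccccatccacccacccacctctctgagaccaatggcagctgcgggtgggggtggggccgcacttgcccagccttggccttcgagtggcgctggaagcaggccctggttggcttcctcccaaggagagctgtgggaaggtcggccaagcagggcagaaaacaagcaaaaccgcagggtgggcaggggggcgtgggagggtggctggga
Cpt1a, chr1:209995910-209996159, plus strand: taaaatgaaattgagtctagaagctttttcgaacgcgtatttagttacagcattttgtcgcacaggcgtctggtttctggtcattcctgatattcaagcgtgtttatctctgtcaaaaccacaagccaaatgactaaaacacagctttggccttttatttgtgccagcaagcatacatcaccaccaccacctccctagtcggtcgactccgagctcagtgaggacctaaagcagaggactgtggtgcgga
Eci1, chr10:13961000-13961249, plus strand: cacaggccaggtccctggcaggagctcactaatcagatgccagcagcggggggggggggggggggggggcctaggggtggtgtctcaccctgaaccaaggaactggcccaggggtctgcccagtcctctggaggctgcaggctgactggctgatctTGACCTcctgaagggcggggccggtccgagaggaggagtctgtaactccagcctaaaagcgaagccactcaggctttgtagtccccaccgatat

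The Slc27a1 and Eci1 windows held 1 match each and the Cpt1a window none. Windows of 300 bases, from 250 before to 50 after the start, were at hand for 31 of the 37 members. The core site was present in 8 of these 31, or 25.8%, and in 16.2% of all 33469 windows. The 8 include Eci2 and Echs1, which are given no ratio here. Each member was counted by 1 window, while every window entered the wider count, so a gene with several would weigh more there. Its extended form AAGGTCA, which contains AGGTCA, was present in 2 members, Acacb and Hadhb, or 6.45%, and in 4.61% of all windows. The ERR motif TNAAGGTCA was in 0 of the 31 members and 1.2% of all windows, and the direct repeat of the core site with 1 base between the copies, read by PPAR with its partner RXR, was in 0 members and 0.0538% of all windows. Both strands were searched, and these counts describe letters in short windows, not receptor binding.

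Electron transfer genes were near WT and Ucp3 was higher in BMD. Etfa and Etfb, the subunits of the electron transfer flavoprotein, had 395, 381 and 349 CPM and 52, 42.1 and 49 CPM in WT, BMD and DMD. Etfdh, the dehydrogenase that hands these electrons to ubiquinone, had 127, 126 and 110 CPM. Ucp3 (ENSRNOG00000017716), an uncoupling protein of muscle mitochondria, had 8.78, 14.3 and 12.5 CPM on 55, 90 and 47 UMIs. Its log2 ratio was 0.70 (0.20 to 1.21) for BMD and 0.50 (-0.09 to 1.09) for DMD, an interval that spans 0. Within cluster 1 Ucp3 had 8.32, 17 and 9.38 CPM. Within cluster 2 it had 15.5, 12.9 and 16 CPM on 7, 52 and 29 UMIs, with BMD no longer higher.

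None of the 5 regulators passed 1.5-fold in either genotype. Ppara, the receptor PPARα, had 501 CPM in WT, 516 in BMD and 451 in DMD. Ppargc1a, the coactivator PGC-1α, had 723, 569 and 622 CPM, with log2 ratios of -0.34 (-0.41 to -0.28) for BMD and -0.22 (-0.29 to -0.15) for DMD. Its WT level was the highest within cluster 1, at 746, 673 and 662 CPM, and the lowest within cluster 2, at 455, 513 and 581 CPM. In cluster 2 the log2 ratio was 0.17 (-0.03 to 0.39) for BMD and 0.35 (0.13 to 0.57) for DMD. Over the whole class Ppargc1b, which encodes the related PGC-1β, lay higher than WT, at 882, 952 and 1137 CPM, with a log2 ratio of 0.37 (0.31 to 0.42) for DMD. Among the ERR receptors, Esrra had 108, 94.2 and 105 CPM and Esrrg 730, 846 and 796 CPM.

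A wider list of fatty acid genes, covering storage, peroxisomal oxidation, ketone and propionate use and further regulators, had more genes lower than higher past 1.5-fold. Of its 58 genes, 57 were found and 52 reached 50 UMIs in this class. In BMD, 11 of the 52 were lower past 1.5-fold, or 21.2%, beside 10.3% of all genes, and 5 were higher, or 9.62%, beside 8.21%. In DMD, 13 were lower, or 25%, and 2 higher, or 3.85%, each beside 10.9% of all genes. The median log2 ratio of the list was -0.16 in BMD and -0.30 in DMD. This list was chosen with earlier results of these data known, so its shares are not independent of those results. Its values by cluster of the cardiomyocyte-like class are not given here.

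Pdk4 (ENSRNOG00000009565) was the 1 gene of the wider list higher past 1.5-fold in both, or 1.92%, beside 5.38% of all genes. It encodes pyruvate dehydrogenase kinase 4, which switches off glucose oxidation when fatty acids are used. Pdk4 had 17.1 CPM in WT, 155 in BMD and 66.2 in DMD, on 107, 981 and 250 UMIs, with log2 ratios of 3.19 (2.90 to 3.49) for BMD and 1.96 (1.623 to 2.296) for DMD. BMD was the highest library and WT the lowest, with no overlap of intervals.

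On the lower side in both were 6 genes of the wider list, or 11.5%, beside 4.72% of all genes. Mgll, monoglyceride lipase, had 117, 55.9 and 40 CPM in WT, BMD and DMD. Ehhadh, an enzyme of peroxisomal oxidation, had 11.8, 4.91 and 2.38 CPM on 74, 31 and 9 UMIs. Rxrg, a partner receptor of PPARα, had 61.9, 36 and 24.6 CPM. For these 3 genes WT was highest and DMD lowest. For Ehhadh, though, the log2 ratio of DMD over BMD was -1.04 (-2.30 to 0.06), an interval that spans 0. Dgat2, which makes triglyceride, had 17.6, 8.24 and 9.01 CPM, and Acsf2, an acyl-CoA synthetase, had 82.8, 44 and 47.9 CPM. Mcee, methylmalonyl-CoA epimerase of propionate breakdown, had 83.9, 44.7 and 53.5 CPM.

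Set directly against each other, DMD and BMD differed in 4 members past 1.5-fold. Lower in DMD were 3 of the 33, or 9.09%, beside 5.36% of all genes. These were Slc27a1 with a log2 ratio of DMD over BMD of -0.73 (-1.19 to -0.30), Acsl1 with -0.60 and Acsl6 with -0.96. Fabp4 was the 1 higher, or 3.03%, beside 8.51% of all genes. The median log2 ratio of DMD over BMD was -0.13 for the members and 0.04 for all genes. Cpt1a and Cpt1b stood at 0.09 and -0.06 in this comparison.

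For Fabp3 and Acsl1, shares of nuclei at equal depth followed the order of the CPM. The WT and DMD intervals overlapped for Fabp3, though, as did those of WT and BMD for Acsl1. After each nucleus was thinned to 500 UMIs, with 0 nuclei lost, Fabp3 was seen in 15.4% of cardiomyocyte-like nuclei in WT (13.8 to 17%), 26% (23.8 to 28.3%) in BMD and 18.2% (15.9 to 20.7%) in DMD. Without thinning the shares were 52.5, 77.5 and 63.4%. In endothelial-like nuclei, given as a background, the thinned share was 0.978, 1.73 and 1.64%, at medians of 792, 1080.5 and 933 UMIs before thinning. Acsl1 was seen in 21.7% (19.9 to 23.6%), 20.8% (18.8 to 23%) and 12% (10.1 to 14.1%) of thinned cardiomyocyte-like nuclei. Its thinned share was 1.37, 2.2 and 1.96% in endothelial-like nuclei. Without thinning it was seen in 70, 74 and 54.3% of cardiomyocyte-like nuclei. Cpt1b was seen in 4.92% of thinned nuclei in WT (4.01 to 5.95%), 6.03% (4.88 to 7.36%) in BMD and 7.82% (6.27 to 9.62%) in DMD, beside 0.13 to 0.424% of endothelial-like nuclei. Its WT and DMD intervals did not overlap, and that of BMD overlapped both.

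Across the heart, most members had their highest level in cardiomyocyte-like nuclei. Summed over the 35 members, this class had 7663 CPM in WT, 7565 in BMD and 7264 in DMD. Endothelial-like nuclei followed with 3494, 2837 and 3996 CPM, of which Fabp4 gave 1621, 1223 and 2040. Without Fabp4 they had 1873, 1614 and 1957 CPM, below pericyte-like or smooth muscle-like nuclei, which had 2306, 2226 and 2253 CPM without it. Fibroblast-like nuclei had 1950, 1596 and 1711 CPM with Fabp4 counted. By the mean over libraries, 26 of 35 members were highest in cardiomyocyte-like nuclei, 23 of them in each of the 3 libraries, although Echs1 is among the 26 on its 1 UMI. For 17 members the cardiomyocyte-like mean was at least 2 times that of the next class. The same counts were not made over all genes, so they do not show whether the members differ from other genes in this. Esrrg stood 10.2 times above the next class, Fabp3 9.11 times, Ppargc1a 8.49 times, Ppara 8.18 times and Acacb 7.46 times. Cpt1b stood 5.46 times above the next class, and Cpt1a 1.13 times.

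**Figure D4:**
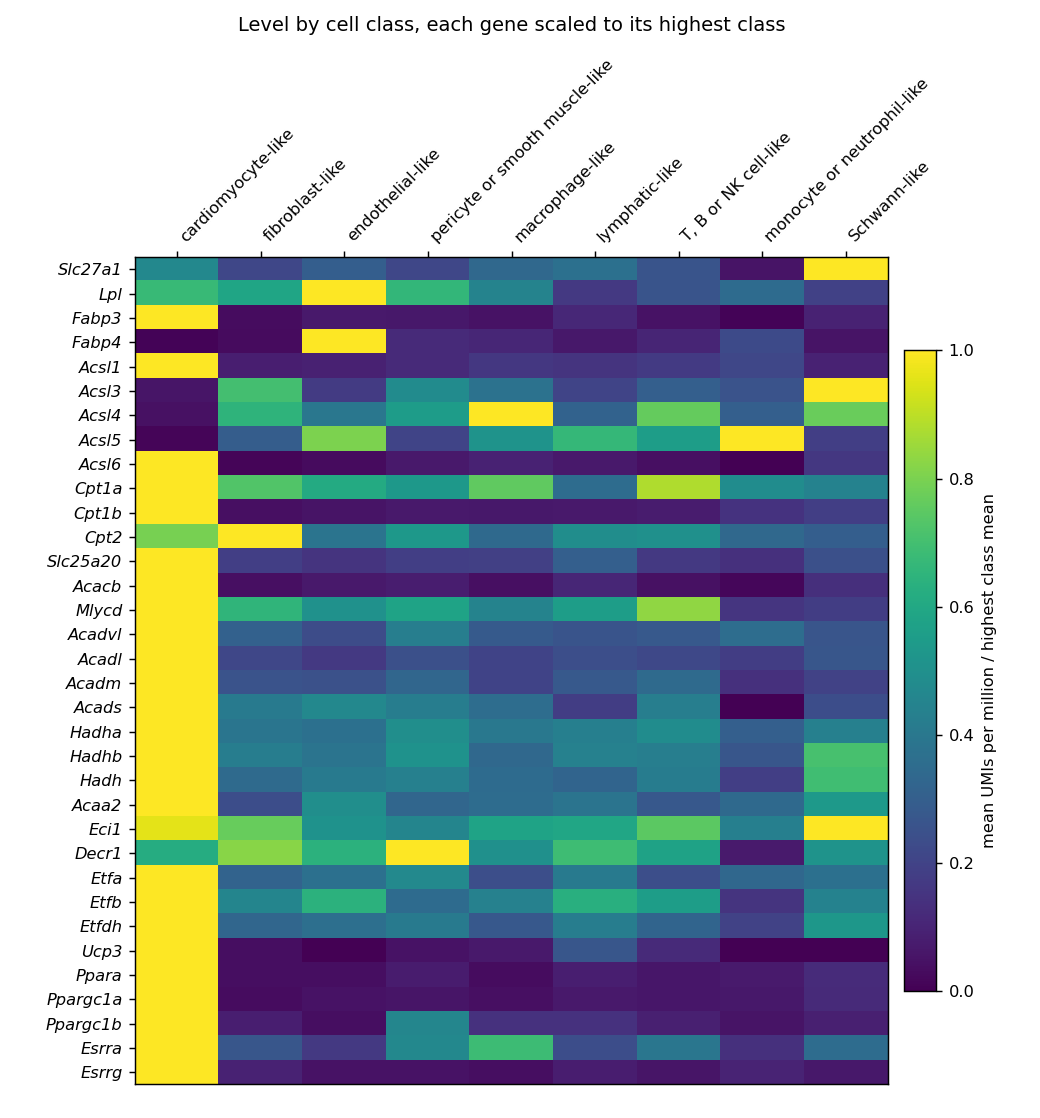
Mean level over the 3 libraries of 34 members in 9 cell classes, each row divided by its highest class, so that 1 is the class with the highest CPM. The cardiomyocyte-like column is at 1 for 25 rows, and Fabp4, Lpl, Acsl3, Acsl4, Acsl5, Slc27a1, Eci1, Cpt2 and Decr1 peak elsewhere.

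The remaining members peaked in other classes, several of them acyl-CoA synthetases. Acsl4, which prefers arachidonic acid, was highest in macrophage-like nuclei, with 204, 197 and 148 CPM beside 7.5, 7.92 and 9.01 CPM in cardiomyocyte-like nuclei. Acsl5 had 143, 133 and 135 CPM in endothelial-like nuclei and 2.39, 3.01 and 2.12 CPM in cardiomyocyte-like ones, and its highest mean, 171 CPM in monocyte-like or neutrophil-like nuclei, rested on 25 UMIs. Acsl3 had 61.7, 41 and 55.5 CPM in fibroblast-like nuclei. Cpt2 was highest in fibroblast-like nuclei at 45.8, 28.7 and 32.7 CPM, and Decr1 in pericyte-like or smooth muscle-like nuclei at 53.1, 57.3 and 38.5 CPM. Slc27a1, Acsl3 and Eci1 had their highest mean in Schwann-like nuclei, on only 14, 13 and 9 UMIs.

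By the mean over libraries, Lpl and Fabp4 were highest in endothelial-like nuclei, although in BMD Lpl was higher in cardiomyocyte-like nuclei. Both differed between libraries in several classes. In endothelial-like nuclei Lpl had 580, 320 and 614 CPM in WT, BMD and DMD, with a log2 ratio of -0.86 (-1.01 to -0.70) for BMD and 0.08 (-0.05 to 0.21) for DMD. This class pooled 3 clusters in unequal shares. The cluster led by Dkk2, Gja5 and Sox17 held 253 of 1534 nuclei in WT, 374 of 1502 in BMD and 301 of 1888 in DMD. Lpl values by endothelial-like cluster are not given here. In fibroblast-like nuclei Lpl had 456, 199 and 233 CPM, with log2 ratios of -1.19 (-1.33 to -1.06) for BMD and -0.97 (-1.09 to -0.85) for DMD. In macrophage-like nuclei it had 317, 159 and 199 CPM. Here WT was higher than both other libraries in fibroblast-like and macrophage-like nuclei, and higher than BMD alone in endothelial-like nuclei. In the barcodes with at most 50 UMIs Lpl had 741, 306 and 435 CPM, the order seen in fibroblast-like and macrophage-like nuclei but not in endothelial-like ones. Scrublet marked 14%, 9.74% and 23.5% of macrophage-like nuclei in WT, BMD and DMD as doublets. The parts of free RNA and of doublets in the differences were not tested.

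The fibroblast-like class pooled 2 clusters in unequal shares. The smaller one, led by Ltbp2, Tnc and Ccl2, held 6.13%, 29.5% and 17.3% of the class in WT, BMD and DMD. In the larger cluster Lpl had 488, 271 and 266 CPM, with log2 ratios of -0.85 (-0.99 to -0.71) for BMD and -0.88 (-1.001 to -0.755) for DMD. In the smaller one it had 119, 64.9 and 112 CPM, so DMD was close to WT there.

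In endothelial-like nuclei Fabp4 had 1621, 1223 and 2040 CPM, within 1.5-fold of WT in both. In DMD, Fabp4 was higher past 1.5-fold in fibroblast-like nuclei, at 34.2, 31.8 and 74.6 CPM, and in macrophage-like nuclei, at 114, 134 and 271 CPM. The free RNA level of Fabp4 was also highest in DMD, as given above. So was the doublet share, at 23.5% of macrophage-like and 0.748% of fibroblast-like nuclei. The parts of free RNA and of doublets in these values were not tested.

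**Figure D5:**
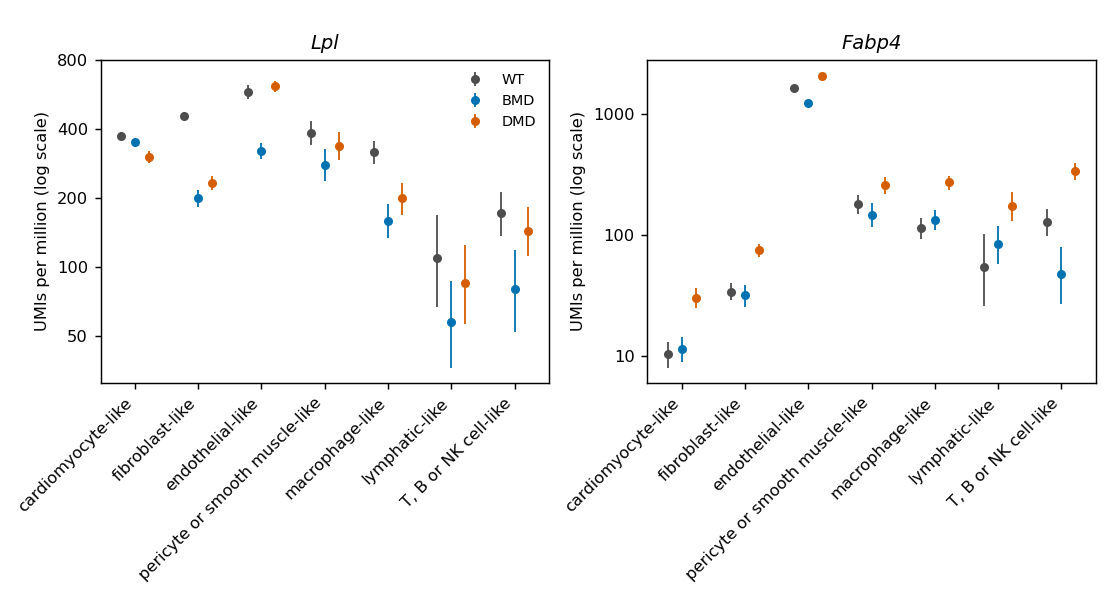
CPM, on a log axis, of Lpl (left) and Fabp4 (right) in 7 cell classes of the WT, BMD and DMD libraries, with exact Poisson 95% intervals. Lpl lies lower in BMD and DMD than in WT in fibroblast-like and macrophage-like nuclei, and Fabp4 is highest in DMD in every class shown.

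Some members that differed in cardiomyocyte-like nuclei were measured well enough in other classes to set beside them. Slc27a1 had 19.4, 9.57 and 13.6 CPM in fibroblast-like nuclei, with log2 ratios of -1.02 (-1.68 to -0.40) for BMD and -0.51 (-1.05 to 0.01) for DMD. Hadh had 33.8, 23.6 and 22 CPM there, with log2 ratios of -0.52 and -0.62. In the larger fibroblast-like cluster alone, Slc27a1 had 18.5, 9.95 and 14.3 CPM and Hadh 35.5, 29.9 and 22.1 CPM. Cpt1a had 76.7, 59.8 and 74.6 CPM in fibroblast-like nuclei, so the WT and DMD values were close. In endothelial-like nuclei Cpt1a had 63.8, 38.1 and 75.4 CPM, with BMD lower past 1.5-fold and DMD above WT. After thinning to 500 UMIs, shares with Cpt1a were 3.46% (2.6 to 4.5%), 2.33% (1.63 to 3.23%) and 3.81% (3 to 4.78%). The WT interval overlapped both others. The class pooled 3 clusters in unequal shares, and Cpt1a values by endothelial-like cluster are not given here. Esrra, near WT in cardiomyocyte-like nuclei, had 112, 51.4 and 47 CPM in macrophage-like nuclei, with log2 ratios of -1.12 (-1.67 to -0.60) and -1.25 (-1.82 to -0.70). Doublets were 14%, 9.74% and 23.5% of macrophage-like nuclei, and their part in the Esrra values was not tested. Fabp3 had 9.08, 21.5 and 15 CPM in fibroblast-like nuclei, with 9.04, 23 and 15.8 CPM in the larger cluster alone. Its free RNA level was 209, 439 and 252 CPM, in the same order, and the part of free RNA was not tested.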

How the data were processed

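The authors made libraries with a 10x Genomics kit (named 3′ in the methods, 5′ in the results), counted reads with Cell Ranger on rn6 (submitters' processing notes), and deposited raw UMI counts per gene and barcode. Whether introns were counted is not given in the sources used here. WT counts came from an aggregate of the 3 libraries (Cell Ranger 6.0.1 in its header, keeping 76.09% of BMD and 92.86% of DMD UMIs), and the other libraries from single matrices (version 4 in their headers), and which version counted the WT library is not given in the sources used here. A difference of counting between libraries, if there was one, cannot be told apart from genotype in ratios over WT.

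Nuclei were the 9964 WT, 6810 BMD and 7890 DMD barcodes of highest UMI count, after the numbers in the methods. Clustering used scanpy 1.11.5 (2000 variable genes, 30 principal components, 15 neighbours, Leiden resolution 0.5) without the members, the wider list, mitochondrial genes and some sex-linked genes. Of the genes the study names, Nppa, Nppb, Myh6, Myh7, Tmem65, Ryr2, Gja1 and Dmd were also left out. Classes needed 3 raised markers. After the data were seen, clusters with a median over 5% mitochondrial UMIs or over 50% Scrublet doublets were left unnamed. Scrublet marked 8.01%, 5.1% and 10.4% of all nuclei in WT, BMD and DMD, and 3.6%, 2.45% and 5.85% of those in named classes, which were kept. Some classes had larger shares, up to 28.2% in monocyte-like or neutrophil-like nuclei of DMD. UMIs were summed per class and library. Intervals were exact Poisson for CPM, Clopper-Pearson for shares and conditional binomial for ratios (scipy 1.17.1). Only the ratio and its interval were run on simulated data. Those counts were Poisson draws, the model the interval assumes, so the run does not cover clustering of UMIs within nuclei. Genes needed 50 UMIs over the 3 libraries, and 1.5-fold served as the call.

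All members are accounted for, with full values for those past 1.5-fold in cardiomyocyte-like nuclei or highest in another class. Genes of the wider list are named when past 1.5-fold in the same direction in both genotypes. Ech1 is named besides, next to the members for unsaturated fatty acids. The members and lists were chosen with earlier results of these data known.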

Additional observations from a re-analysis of the deposited data

Results flagged for a closer look

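Cpt1a and Hadh, which were lower past 1.5-fold in cardiomyocyte-like nuclei of DMD, were higher past 1.5-fold in pericyte-like or smooth muscle-like nuclei, and the difference between the classes was not tested. There Cpt1a had 45.7, 40.1 and 68.6 CPM in WT, BMD and DMD, a log2 ratio of DMD over WT of 0.59 (-0.12 to 1.31) on 31 and 41 UMIs. Hadh had 25.1, 36.3 and 38.5 CPM there, a log2 ratio of 0.62 (-0.35 to 1.62) on 17 and 23 UMIs. Both intervals span 0.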

How the results depend on the processing

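Each count and median over the members was recomputed under 18 other settings, 4 of them chosen after the data were seen (the high-mitochondrial cluster counted, only nuclei with 2000 to 5000 UMIs, and each of the 2 cardiomyocyte-like clusters at resolution 1.0 alone). Of 108 values, 98 stayed within 1.5 times the count or within the counting range of the median. The count of members higher in DMD, 1 as reported, was 0 with expected free RNA subtracted, where Fabp4 had no level left, and 2 with nuclei thinned to 1000 UMIs, with the high-mitochondrial cluster counted, and with nuclei of 2000 to 5000 UMIs. In cluster 1 alone the count lower in BMD was 0, beside 9.7% of all genes. In cluster 2 alone 7 were higher in BMD, beside 10.9% of all genes. There 3 were lower and 5 higher in DMD, beside 17.9% and 13% of all genes. Several of the higher calls in both genotypes rested on few WT UMIs, as given above. The medians in cluster 2 were 0.24 in BMD and 0.22 in DMD, beside -0.095 and -0.088 for all genes, with 96 WT nuclei. The cause was not tested. Of the 14 ratios past 1.5-fold, 12 kept their sign, and Ucp3 in BMD (-0.27) and Hadh in DMD (0.10) changed it in cluster 2. Past 1.5-fold under every setting that gave them a value were 4, Slc27a1 and Fabp4 in DMD and Fabp3 and Acsl6 in BMD. Cpt1a ranged from -0.83 to -0.57 in BMD and from -0.81 to -0.39 in DMD, Cpt1b in BMD from 0.51 to 1.15, and Acsl1 in DMD from -1.07 to -0.14. Of ratios within 1.5-fold, Acsl3 in DMD passed it in 7 settings, Hadh and Acsl3 in BMD in 4 each, and Cpt1b in DMD in 3. Others passed it in fewer settings or in none. No paired analysis was possible because each genotype has 1 library.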
